A study of Mus musculus with 24 samples.

Results

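The genes Scn10a, Scn4a, Scn4b, Fgf12 and Fgf13 are 5 of the 56923 gene identifiers counted in nuclei of mouse cardiomyocytes (CMs). The first 3 encode parts of voltage-gated sodium channels and the last 2 encode intracellular fibroblast growth factors. The genes were chosen by name, with their measured levels across the 6 groups of postnatal day and genotype already known, so their levels and the differences between groups are given as a description and carry no test. Tests are given for 47 other genes of sodium channels, their partners and sodium transport. These lists were also chosen with earlier results of these data known, which limits what their tests can show. Fgf13 had the highest level of the 5 genes in every group, and its own level was highest at postnatal day 7 (P7) and lowest at P14 in both genotypes. Scn4a had reads in all P7 libraries and in 6 of the 13 others, Fgf12 and Scn10a showed overlapping values in all groups, and Scn4b was close to absent.

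Voltage-gated sodium channels open when the membrane depolarizes and carry the inward current of the action potential upstroke. The pore is formed by an alpha subunit, such as the product of Scn4a in skeletal muscle and of Scn10a in sensory neurons, while beta subunits such as the product of Scn4b modify gating and anchoring. Fgf11, Fgf12, Fgf13 and Fgf14 encode the fibroblast growth factor homologous factors, which are not secreted, bind the C-terminal tail of alpha subunits and shift the voltage range over which channels inactivate. In the mouse ventricle Fgf13 is known as the main member of this family.

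Nuclei were sorted from snap-frozen ventricles by PCM1, a centriolar satellite protein found at the nuclear surface of CMs, and 3′ ends of their RNA were sequenced. Control mice (XMLC2(-)Casp2(fl/fl), labelled WT) and Casp2-depleted mice (XMLC2(+)Casp2(fl/fl), labelled Casp2 KO) both carried the floxed Casp2 allele on a C57BL/6N background, and mice of both sexes were used. Only the Casp2-depleted mice carried the XMLC2-Cre transgene, which is driven by a cardiac promoter, so the presence of Cre and the loss of Casp2 cannot be told apart. Casp2 encodes a caspase that acts in control of ploidy. Each genotype had 4 libraries at P1, P7 and P14, each from a pool of 15 hearts at P1, 6 at P7 and 2 at P14. The study left out 3 of the 24 libraries for low quality, which leaves 3 libraries for P1 control, P14 control and P14 Casp2-depleted and 4 for the other groups.

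The 21 libraries held 891817 to 2924097 reads on genes, and CPM are the reads of a gene divided by the reads on all genes, set to a common scale and adjusted by trimmed means of M-values (TMM). On this scale a count of 0 reads limits a level to 1.40 to 2.38 CPM in a single library, the level of 3 reads, for counting error only. Reads on no gene made up 34.3 to 64.3% of uniquely placed reads at P7 and 63.7 to 76.1% at P14. The targeted gene did not check the labels, since Casp2 had no read in any P1 or P14 library and stood at 1.35 ± 1.23 CPM (SD, n = 4) in P7 control and 1.18 ± 1.36 CPM (SD, n = 4) in P7 Casp2-depleted libraries. Of the marker lists, all 7 CM genes were read, with 1661995 reads, and their sum ranged from 45132 to 139761 CPM at P7 and from 9234 to 39207 CPM at P14. Markers of skeletal muscle (6 of 8 read, 2911 reads), neurons (8 of 8, 2006 reads), Schwann cells and glia (6 of 6, 3730 reads), the conduction system (7 of 7, 10506 reads), atrial CMs (5 of 5, 2247 reads), fibroblasts (7 of 7, 4741 reads), endothelium (5 of 5, 6619 reads), mural cells (4 of 4, 9974 reads), macrophages (4 of 5, 3319 reads) and erythroid cells (3 of 3, 783 reads) were all far lower. Within the skeletal muscle list, Myod1 and Myf6, which define the lineage, had 0 reads, while Myh2 had 1131 and Mybpc2 970. How far a difference comes from fewer nuclei of a type or from less RNA per nucleus cannot be told apart in these bulk samples.

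The 5 genes lie on 4 chromosomes, and their reads were counted over the whole gene, introns included. In the assembly GRCm39, Scn10a (ENSMUSG00000034533) spans chr9:119435988-119548388 on the minus strand, 34.4 kb from Scn11a on the same strand. Scn4b (ENSMUSG00000046480) spans chr9:45049595-45065452 on the plus strand, 8.23 kb from Scn2b, and 31.9% of it is overlapped by an antisense non-coding gene. Scn4a (ENSMUSG00000001027) spans chr11:106208370-106256385 on the minus strand. Fgf12 (ENSMUSG00000022523) spans chr16:27975753-28571820 and Fgf13 (ENSMUSG00000031137) spans chrX:58106279-58613431, both on the minus strand. Exons make up 1.56% of Fgf12 and 1.37% of Fgf13, against 8.45% of Scn10a and 17.9% of Scn4a, so most positions at which a nuclear read could fall in the growth factor genes are intronic. Runs of at least 12 adenines on the sense strand, at which an oligo-dT primer can start within a transcript, numbered 21 in Fgf12, 13 in Fgf13, 3 in Scn10a, 1 in Scn4b and 0 in Scn4a, with a median of 2 over 20183 genes tested. Per 10 kb of gene span these are 0.352 in Fgf12, 0.256 in Fgf13, 0.267 in Scn10a, 0.631 in Scn4b and 0 in Scn4a, against a median of 0.548, so the runs in the long growth factor genes were many in number but sparse in density. Per kb of gene span, the mean level over the 21 libraries was 4.37 CPM for Fgf13, 0.551 for Scn4a, 0.391 for Fgf12, 0.289 for Scn10a and 0.0041 for Scn4b.

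RefSeq lists 11 start sites for the 5 genes (4 each for Fgf12 and Fgf13 and 1 for each channel gene), and each window of 300 bases around them was found once in GRCm39. The consensus of MEF2, a family of transcription factors of muscle genes, was present on either strand in 2 of these windows, against 3.19% of all 32841 windows. The 250 bases before those 2 starts, and before the start of Scn4a as a muscle channel gene without a match, are shown 5′ to 3′ on the minus strand with the match in capitals. They are chrX:58630933-58631182 for Fgf13, chr16:28571996-28572245 for Fgf12 and chr11:106240217-106240466 for Scn4a.
Fgf13: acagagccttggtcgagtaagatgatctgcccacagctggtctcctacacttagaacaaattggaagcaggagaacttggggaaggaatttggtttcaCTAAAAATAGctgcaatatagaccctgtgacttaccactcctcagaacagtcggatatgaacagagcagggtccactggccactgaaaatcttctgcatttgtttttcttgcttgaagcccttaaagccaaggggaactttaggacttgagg
Fgf12: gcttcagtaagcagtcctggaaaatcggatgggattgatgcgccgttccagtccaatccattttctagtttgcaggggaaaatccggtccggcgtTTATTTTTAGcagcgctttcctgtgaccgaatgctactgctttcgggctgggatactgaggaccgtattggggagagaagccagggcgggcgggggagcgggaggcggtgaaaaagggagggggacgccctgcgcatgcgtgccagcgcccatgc
Scn4a: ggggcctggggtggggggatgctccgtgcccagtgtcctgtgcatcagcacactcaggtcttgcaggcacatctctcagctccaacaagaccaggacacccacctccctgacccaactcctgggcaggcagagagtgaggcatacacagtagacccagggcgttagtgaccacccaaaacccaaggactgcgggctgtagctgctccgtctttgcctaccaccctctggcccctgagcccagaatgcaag
The match begins 152 bases before the start in Fgf13 and 155 bases before it in Fgf12. The Fgf13 start lies 17501 bases and the Fgf12 start 175 bases upstream of the span given above, so reads beyond the span were not counted to the gene. Other motifs searched on both strands were the E-box CANNTG (6 of 11 windows, 72.3% of all windows), AGGTGT of T-box factors (2 of 11, 13.7%), TNAAGTG of NKX2-5 (0 of 11, 11.5%) and AGATAA of GATA factors (0 of 11, 11.2%). A match describes letters in a window and not a bound site.

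Fgf13 had 73762 reads in the 21 libraries, more than the other 4 genes together. At P1 it stood at 692, 1902 and 1645 CPM in the control libraries and at 1832, 1334, 770.9 and 2866 CPM in the Casp2-depleted libraries. At P7 the control libraries held 4679, 6445, 2697 and 2837 CPM and the Casp2-depleted libraries 4707, 5482, 2732 and 2095 CPM. At P14 the control libraries held 1712, 401.5 and 426.1 CPM and the Casp2-depleted libraries 735.2, 292.9 and 277.0 CPM. All P7 libraries of a genotype thus lay above all P14 libraries of that genotype. The P7 and P14 groups did not overlap, in either direction, for 15.4% of all genes in controls and 13.2% in Casp2-depleted CMs. The P14 control group was spread by 1 library, replicate 1, at about the level of P1. At P7, replicates 1 and 2 were the higher pair and replicates 3 and 4 the lower pair in both genotypes, where the replicate number is named a batch in the file labels.

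**Figure D1:**
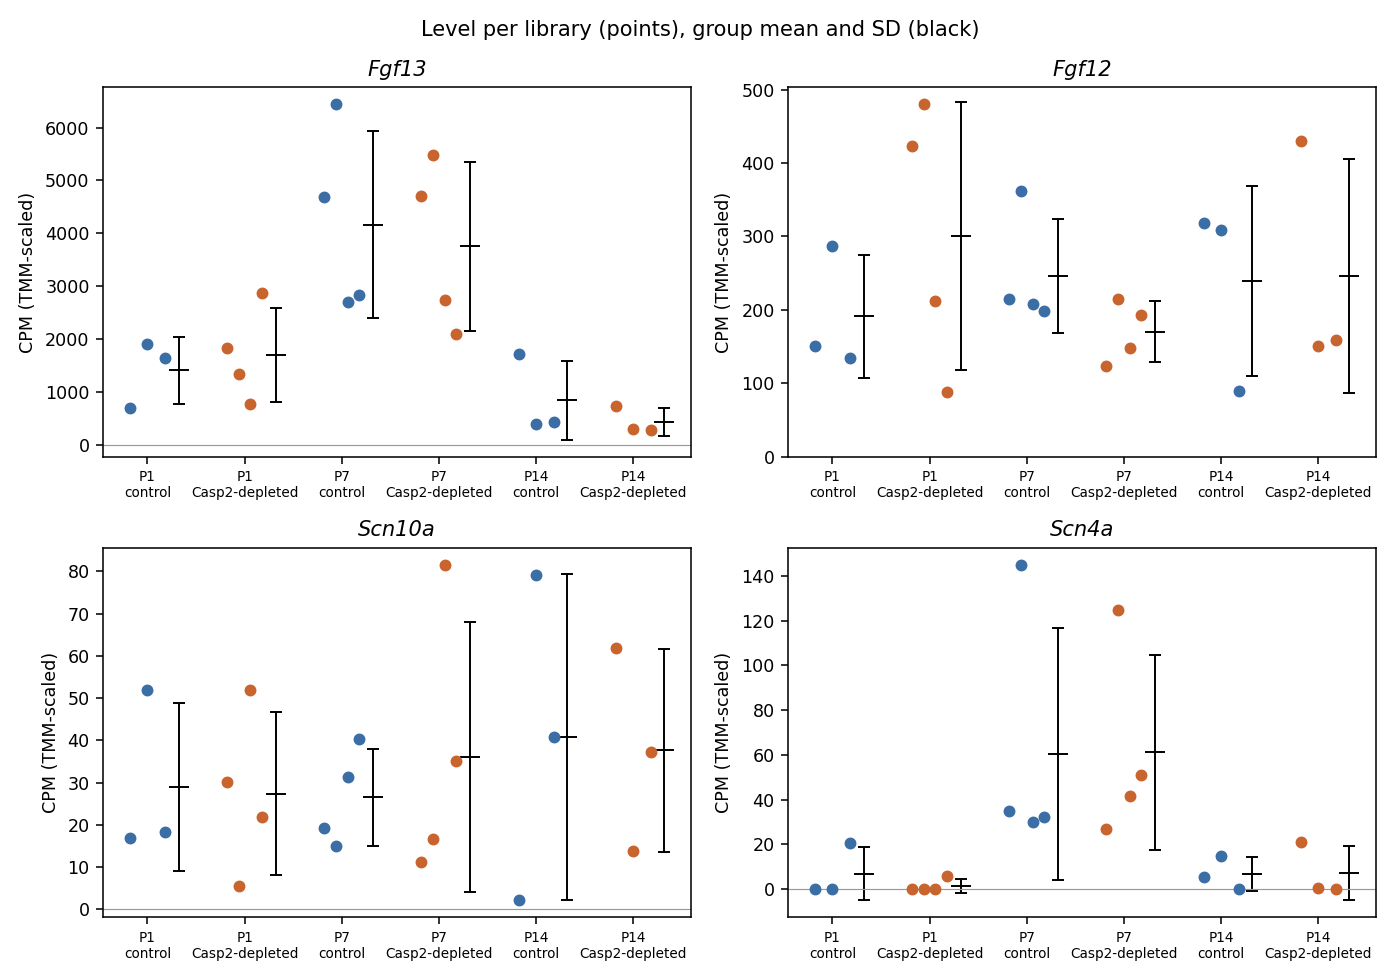
Levels of Fgf13, Fgf12, Scn10a and Scn4a (CPM, TMM-scaled, linear axes of different height) in each library of the 6 groups, with control in blue and Casp2-depleted in orange, and with the group mean and SD in black (n = 3 or 4). The group means of Fgf13 and Scn4a are highest at P7 in both genotypes. For Fgf13 the P7 and P1 libraries overlap in Casp2-depleted CMs, and for Fgf12 and Scn10a all groups overlap.

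The group means of Fgf13 were 1413 ± 637 CPM at P1 control, 1701 ± 890 at P1 Casp2-depleted, 4164 ± 1768 at P7 control, 3754 ± 1601 at P7 Casp2-depleted, 847 ± 750 at P14 control and 435 ± 260 at P14 Casp2-depleted (SD, n = 3, 4, 4, 4, 3 and 3). In this order of levels, each group overlapped with the next lower one. P7 lay above P1 without overlap in the controls, where these groups did not overlap for 9.76% of all genes, but the P7 and P1 Casp2-depleted libraries overlapped. In the quasi-likelihood fit of edgeR over all genes, the log2 difference between P7 and P1 was 1.56 (SE 0.39) in controls and 1.14 (SE 0.35) in Casp2-depleted CMs. Between P7 and P14, Fgf13 fell by 2.30 (SE 0.40) on the log2 scale in controls and by 3.11 (SE 0.42) in Casp2-depleted CMs, where the median of all genes fell by 0.75 and 0.61. From P1 to P14 the difference was -0.74 (SE 0.40) in controls and -1.97 (SE 0.39) in Casp2-depleted CMs. These SEs rest mainly on a trend of the spread over all genes rather than on the libraries of the gene itself, and a gene was called where p, adjusted by Benjamini-Hochberg, was below 0.05 and the level differed by more than 1 on the log2 scale.

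Between the genotypes, the log2 difference of Fgf13 (Casp2-depleted minus control) was 0.27 (SE 0.37) at P1, -0.15 (SE 0.34) at P7 and -0.96 (SE 0.40) at P14, and -0.28 (SE 0.21) averaged over the days. The libraries of both genotypes overlapped on each day. Without P14 control replicate 1, the value at P14 was 0.07, and the fall from P7 to P14 in controls was 3.33 on the log2 scale. The step from P7 to P14 differed between the genotypes by -0.81 (SE 0.52), and by 0.22 without that library.

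Of the 4 genes of the 5 that had enough reads for the fit, 1 (Fgf13) was called between P7 and P14 in controls, where 1.88% of all 20368 genes tested were called. The same gene was the 1 of 4 called between P7 and P14 (2.83% of all genes) and between P1 and P14 (1.94%) in Casp2-depleted CMs. Since the genes were chosen with these levels known, nothing is read from these counts. With limma on log2 CPM, the fall from P7 to P14 was 2.55 in controls and 3.15 in Casp2-depleted CMs, with a larger SE of 0.60 for each than in edgeR.

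**Figure D2:**
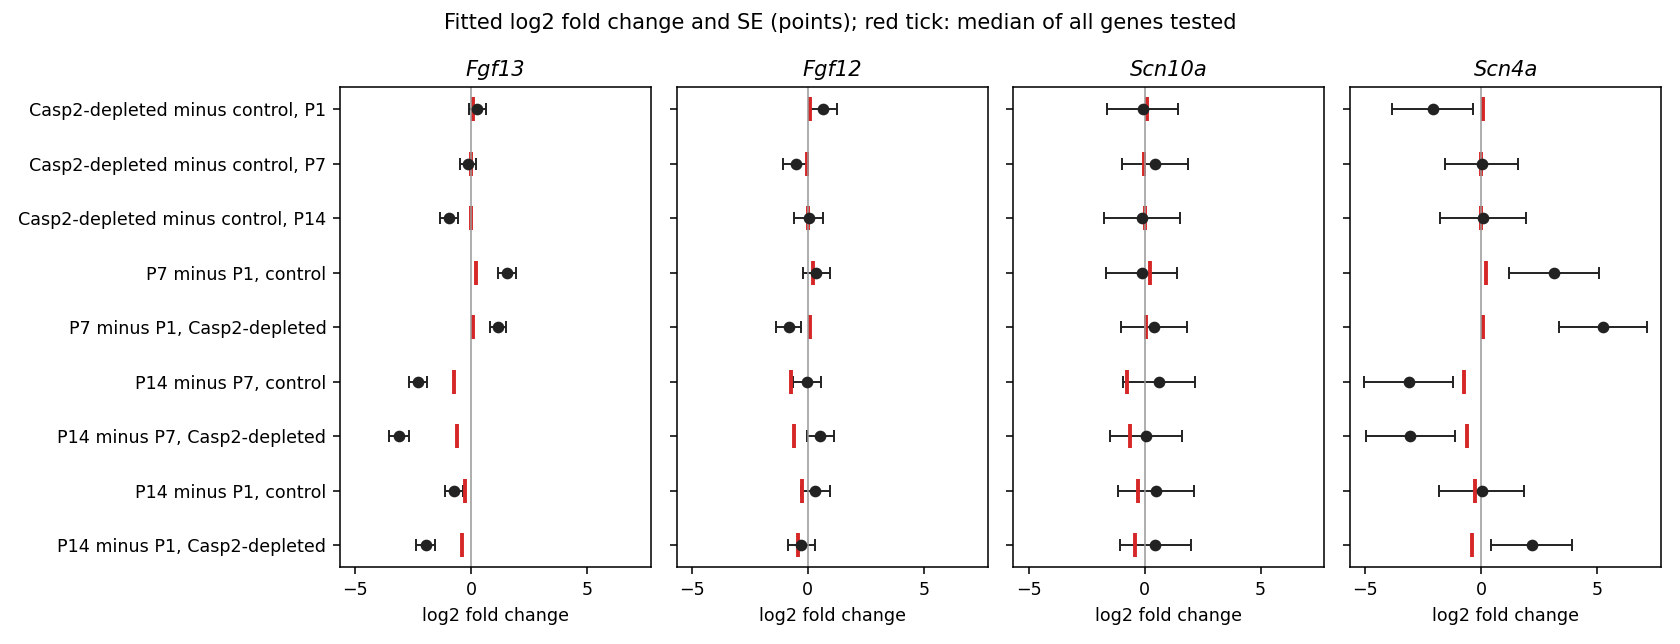
Fitted log2 fold change with SE (points and bars, edgeR, 21 libraries) of Fgf13, Fgf12, Scn10a and Scn4a in 9 comparisons of day and genotype, with the median of all genes tested as a red tick. Fgf13 and Scn4a lie to the right of the tick from P1 to P7 and to the left of it from P7 to P14 in both genotypes, and the bars of Scn10a span 0 in every row.

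The level of Fgf13 followed that of genes that mark CMs. As a share of the summed level of the 7 CM markers, Fgf13 stood at 3.61 ± 0.45% in P1 control, 4.07 ± 1.25% in P1 Casp2-depleted, 4.64 ± 1.98% in P7 control, 5.47 ± 1.53% in P7 Casp2-depleted, 3.68 ± 1.17% in P14 control and 2.79 ± 0.47% in P14 Casp2-depleted libraries (SD). On this scale the P7 mean was 1.26 times the P14 mean in controls, where it was 4.92 times on the CPM scale, and the control libraries of all days overlapped. In Casp2-depleted CMs the P7 mean was 1.96 times the P14 mean on this scale, and the P7 libraries, at 3.72 to 6.89%, lay above the P14 libraries, at 2.36 to 3.30%. The TMM factors were 0.575 to 0.983 at P7 and 1.11 to 1.57 at P14, so scaling widened the CPM difference between these days. Without TMM, Fgf13 stood at 2152 to 3931 CPM in P7 and at 523 to 1900 CPM in P14 control libraries. In Casp2-depleted libraries it stood at 2059 to 3855 CPM at P7 and at 430 to 896 CPM at P14. When the percentage of reads outside genes was added to the fit, the fall from P7 to P14 was 0.94 in controls and 1.64 in Casp2-depleted CMs on the log2 scale, and the rise from P1 to P7 in controls was 0.43. With all 24 libraries the fall from P7 to P14 in controls was 1.45, and the P14 control library that the study left out held 3518 reads of Fgf13. The part of CM content and of reads outside genes in the difference was not tested further.

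**Figure D3:**
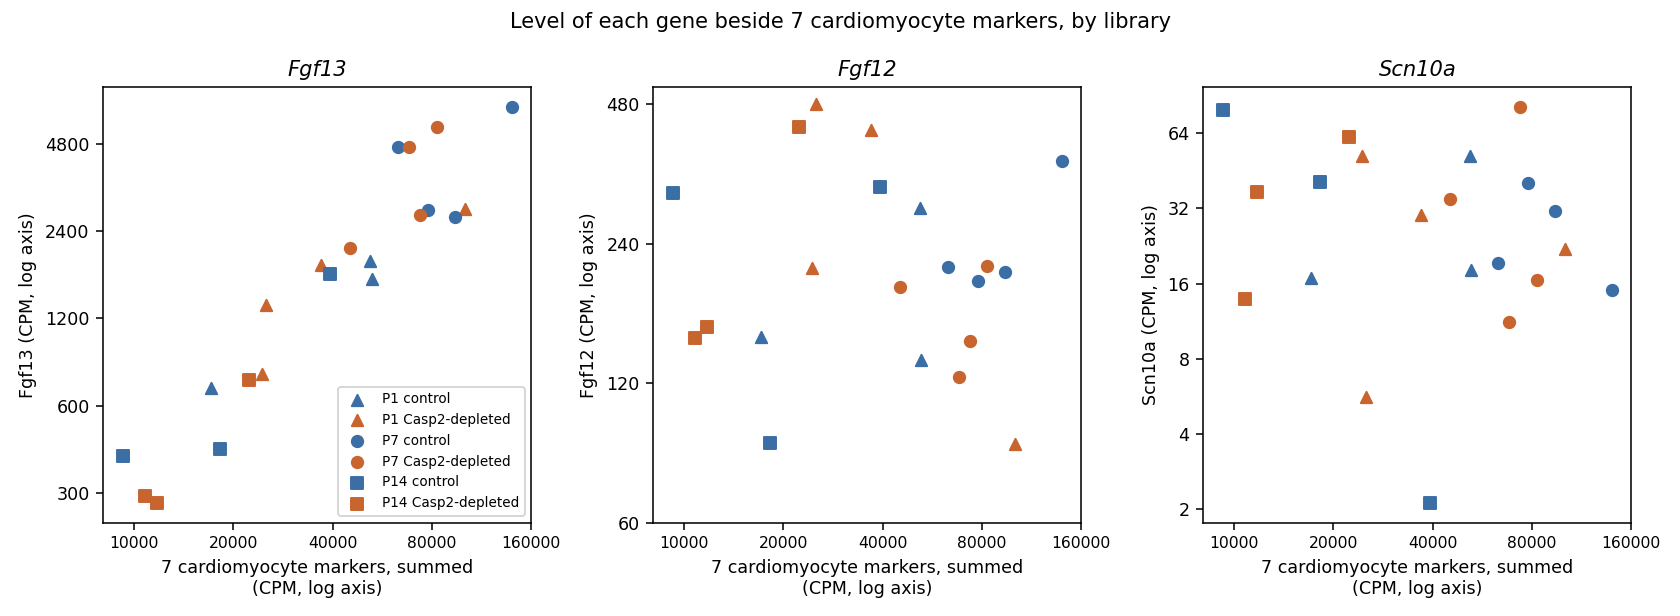
Level of Fgf13, Fgf12 and Scn10a (CPM, TMM-scaled, log axis) against the summed level of 7 CM markers (CPM, log axis) in each of the 21 libraries, with triangles for P1, circles for P7, squares for P14, blue for control and orange for Casp2-depleted. Fgf13 rises with the marker sum from 277.0 CPM to 6445 CPM, whereas Fgf12 and Scn10a show no such order.

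The genes whose log2 CPM was most like that of Fgf13 over the 21 libraries, among 10932 genes, were Myom1 (Pearson's r 0.96), Ryr2 (0.95) and U2surp (0.95). Myom1 encodes a protein of the sarcomeric M-band, Ryr2 the calcium release channel of the sarcoplasmic reticulum, and Ryr2 is also among the 7 markers. The value for Fgf14 was 0.68 (rank 1435), for Scn4a 0.68 (rank 1409), for Fgf12 0.09 and for Scn10a -0.24. These values describe libraries that share their day, genotype and depth.

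Fgf12, the family member described as the main one in human ventricle, had 7459 reads and was read in all 21 libraries. Its level was 151.2, 287.2 and 134.6 CPM in P1 control, and 423.0, 479.8, 212.6 and 88.7 CPM in P1 Casp2-depleted libraries. At P7 it was 214.2, 361.9, 208.1 and 198.8 CPM in control and 123.9, 215.0, 148.1 and 193.4 CPM in Casp2-depleted libraries. At P14 it was 317.8, 308.8 and 89.3 CPM in control and 429.5, 150.2 and 158.7 CPM in Casp2-depleted libraries. All groups overlapped, and the means lay between 170.1 ± 41.5 CPM (SD, n = 4) at P7 Casp2-depleted and 301.0 ± 182.3 CPM (SD, n = 4) at P1 Casp2-depleted. Between the genotypes, the log2 difference (Casp2-depleted minus control) at P7 was -0.53 (SE 0.54). The differences at P1 and P14 were 0.66 (SE 0.59) and 0.04 (SE 0.62). From P7 to P14 it differed by -0.04 (SE 0.58) in controls and 0.53 (SE 0.58) in Casp2-depleted CMs, the interval in which Fgf13 fell. As a share of the 7 CM markers, Fgf12 stood at 0.27% at P7 in both genotypes and at 1.55 ± 1.56% and 1.56 ± 0.32% (SD, n = 3) in P14 control and Casp2-depleted libraries. The 3 genes most like it over the 21 libraries were Acss1 (r 0.76), Fhad1 (0.71) and Fancc (0.69).

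Of the reads on the 4 family genes, Fgf13 took 70.7 ± 13.0% in P1 control, 84.5 ± 2.7% in P7 control and 54.3 ± 16.5% in P14 control libraries, and 71.0 ± 11.7%, 85.0 ± 6.0% and 44.8 ± 3.5% in the Casp2-depleted libraries of the same days. Fgf12 took 5.24 ± 1.03% and 4.38 ± 2.01% at P7, and 18.1 ± 10.4% and 24.9 ± 2.3% at P14, in control and Casp2-depleted libraries. Fgf14, mainly studied in neurons, took 10.2 ± 1.6% and 10.6 ± 4.0% at P7 and 27.6 ± 11.4% and 30.3 ± 5.4% at P14. The Casp2-depleted libraries of P14 held Fgf13 shares of 40.7 to 47.2%, and those of P7 held 76.6 to 90.0%. Fgf14 was not called in any comparison, with group means of 275 to 480 CPM and a log2 difference between P7 and P14 of -0.56 (SE 0.53, adjusted p = 0.615) in controls and -0.60 (SE 0.53, adjusted p = 0.587) in Casp2-depleted CMs (edgeR). Fgf11 had 18 reads in all.

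**Figure D4:**
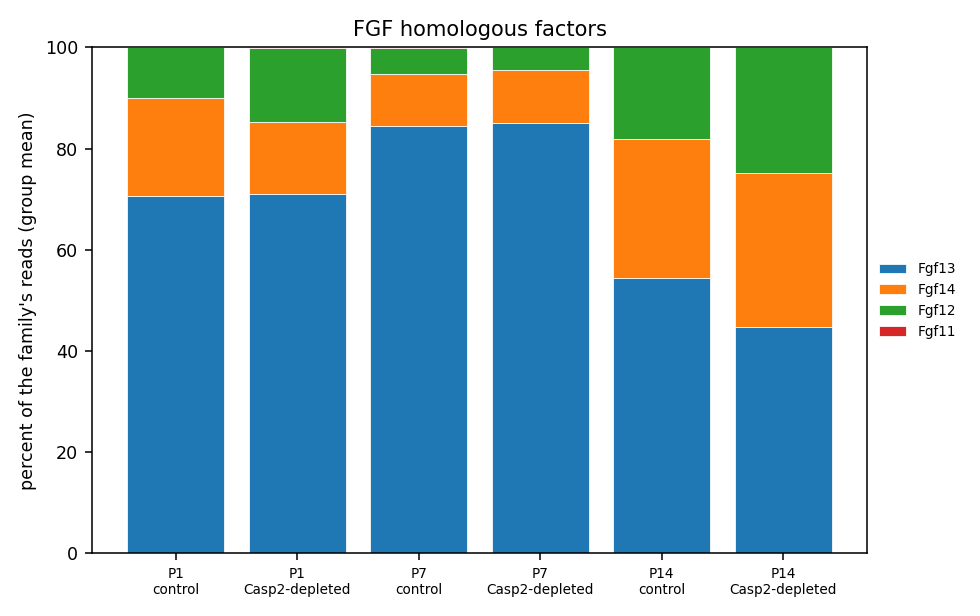
Mean share (percent, linear axis from 0) of the reads on the 4 growth factor homologous genes taken by each gene in the 6 groups. Fgf13 takes 84.5 and 85.0% of its family at P7 and 54.3 and 44.8% at P14, and Fgf11 is too low to be seen.

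Scn4a, the alpha subunit gene of skeletal muscle, had 805 reads and was read in 14 of 21 libraries. At P7 it stood at 34.9, 145.1, 30.0 and 32.1 CPM in control and 27.0, 124.9, 41.8 and 51.2 CPM in Casp2-depleted libraries. At P1 the control libraries held 0, 0 and 20.6 CPM, and of the Casp2-depleted libraries 3 held 0 and 1 held 5.98 CPM. At P14 the control libraries held 5.64, 15.0 and 0 CPM and the Casp2-depleted libraries 21.1, 0.628 and 0 CPM. Each P7 library thus lay above each P1 and P14 library of its genotype, and replicate 2 was the highest P7 library in both genotypes.

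The P7 means of Scn4a, 60.5 ± 56.4 CPM in control and 61.2 ± 43.6 CPM in Casp2-depleted libraries (SD, n = 4), were 8.82 and 8.46 times the P14 means. The log2 difference between the genotypes was 0.02 (SE 1.57) at P7. At P1 and P14 the group values hung on single libraries. The difference between the genotypes at P1 was -2.09 (SE 1.75), 4.33 without P1 control replicate 4 and -6.36 without P1 Casp2-depleted replicate 4. At P14 it was 0.07 (SE 1.84), and -4.13 without P14 Casp2-depleted replicate 2. When the percentage of reads outside genes was added to the fit, the difference from P7 to P14 was 0.26 in controls and -0.89 in Casp2-depleted CMs, where it was -3.12 (SE 1.92) and -3.07 (SE 1.91) without it. The groups of P1 and P7 controls did not overlap for 9.76% of all genes, those of P7 and P14 controls for 15.4%, and those of the Casp2-depleted libraries for 1.95% and 13.2%.

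The summed level of the skeletal muscle markers was not highest at P7, with 18.7 to 120.6 CPM in P7 control and 38.6 to 82.2 CPM in P7 Casp2-depleted libraries, and it ranged from 30.6 to 204.1 CPM at P1 and from 46.9 to 210.1 CPM at P14. Of their 2911 reads, 1131 lay on Myh2, 970 on Mybpc2 and 555 on Actn3. As a share of the 7 CM markers, Scn4a stood at 0.0131 ± 0.0227% at P1, 0.0581 ± 0.0319% at P7 and 0.0588 ± 0.0896% at P14 in control libraries, and at 0.00149 ± 0.00297%, 0.0901 ± 0.0512% and 0.0335 ± 0.0530% in Casp2-depleted libraries of the same days (SD). The P7 and P14 libraries overlapped on this scale in both genotypes. The genes most like Scn4a over the 21 libraries were Gm49490 (r 0.88), Mns1 (0.87) and Coa7 (0.85), and the value for the giant sarcomere gene Ttn was 0.75.

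Scn10a, the alpha subunit gene of sensory neurons, had 1018 reads and was read in all 21 libraries. It stood at 16.8, 52.0 and 18.2 CPM in P1 control and at 30.1, 5.60, 52.0 and 21.9 CPM in P1 Casp2-depleted libraries. At P7 it stood at 19.3, 15.1, 31.3 and 40.4 CPM in control and at 11.2, 16.6, 81.6 and 35.0 CPM in Casp2-depleted libraries. At P14 it stood at 2.11, 79.3 and 40.9 CPM in control and at 61.9, 13.8 and 37.2 CPM in Casp2-depleted libraries. All groups overlapped, with means from 26.5 ± 11.5 CPM (SD, n = 4) at P7 control to 40.7 ± 38.6 CPM (SD, n = 3) at P14 control.

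The log2 differences of Scn10a between genotypes were -0.08 at P1, 0.44 at P7 and -0.11 at P14, with SEs of 1.43 to 1.65, so each SE was larger than a 2-fold change. Its level was not like that of the CM gene Ryr2 (r -0.26), and the values for the neuronal channel genes Scn1a and Scn8a were 0.53 and 0.42. These put Scn1a and Scn8a at ranks 293 and 856 among 10932 genes, and Spearman's rho was 0.28 and 0.40. The genes most like Scn10a were Mthfd2 (r 0.82), an unnamed gene (ENSMUSG00000113017, 0.81) and Thsd1 (0.79). The summed level of the neuron markers was 0 to 164.5 CPM at P14 and 4.11 to 133.1 CPM at P7, and its part in the level of Scn10a was not tested. Scn4b, which encodes a beta subunit, had 2 reads in all, both in P7 Casp2-depleted replicate 3 (1.37 CPM), and was too low for the fit.

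Scn8a, a neuronal alpha subunit also found in CMs, had 4033 reads. At P14 it held 32.4, 134.6 and 111.2 CPM in control and 374.6, 156.5 and 178.3 CPM in Casp2-depleted libraries, which did not overlap, as for 5.15% of all genes. The log2 difference of 1.35 (SE 0.77) was not called (edgeR, adjusted p = 0.419). The other neuronal alpha subunit genes Scn1a (1433 reads), Scn9a (1581), Scn2a (520) and Scn3a (502), Scn7a (417 reads) and Scn11a of sensory neurons (90) were not called in any comparison. Reads on Scn3a, Scn9a and Scn1a cannot be told from those of overlapping antisense genes, as the strand setting of the counting is not stated. The beta subunit genes Scn2b and Scn3b had 39 and 36 reads, and all of Scn2b is overlapped by an antisense gene with 869 reads.

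Of the 47 listed genes outside the 5 described, 46 could be tested, and the calls among them were all downward and all involved P14. Over all genes, 380 of the 382 calls from P7 to P14 in controls and 575 of the 577 in Casp2-depleted CMs were downward as well. Between P7 and P14, 5 of 46 fell in controls (1.88% of all genes called) and 7 of 46 in Casp2-depleted CMs (2.83%), and between P1 and P14, 1 of 46 fell in controls (0.319%) and 4 of 46 in Casp2-depleted CMs (1.94%). The median log2 difference of the 46 genes from P7 to P14 was -1.37 in controls and -1.46 in Casp2-depleted CMs, against -0.75 and -0.61 for all genes. Over this interval the summed level of the 7 CM markers stood at 45132 to 139761 CPM at P7 and at 9234 to 39207 CPM at P14, reads on no gene made up 34.3 to 64.3% and 63.7 to 76.1%, and with the percentage of reads outside genes in the fit 5 of the 17 calls of listed genes were kept. Their part in these calls was not tested further. The listed genes were chosen with earlier results of these data known, so no excess over all genes is read from these counts.

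The genes that fell include sodium and calcium transport, cardiac transcription factors and proteins of cell contacts. Slc8a1, the sodium-calcium exchanger, fell from P7 to P14 by 2.21 in controls (adjusted p = 1.55e-06) and by 3.23 in Casp2-depleted CMs (adjusted p = 1.03e-13), and from P1 to P14 by 1.53 (adjusted p = 0.0158) and 3.34 (adjusted p = 3.11e-14) on the log2 scale. Gata4 and Tbx20, transcription factors of heart development, fell from P7 to P14 by 2.30 and 2.11 in controls (adjusted p = 0.00103 and 0.0140) and by 2.25 and 3.15 in Casp2-depleted CMs (adjusted p = 7.75e-04 and 1.79e-05). From P1 to P14 they fell by 1.97 and 3.36 in Casp2-depleted CMs (adjusted p = 0.00712 and 8.36e-06). The desmosomal gene Pkp2 fell by 4.49 from P7 to P14 in controls (adjusted p = 1.76e-04). Atp1b1, a subunit of the sodium pump, stood at 40.3 ± 27.3 CPM in P7 control and at 0 reads in P14 control libraries, which makes it at least 54.8-fold higher at P7 with TMM scaling and at least 31.9-fold higher without it (adjusted p = 0.0150), with 3 reads over the P14 group as the limit of 0.

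Several of these calls rested on single libraries. The calls of Slc8a1, Gata4 and Tbx20 from P7 to P14 in Casp2-depleted CMs, of Slc8a1 and Pkp2 from P7 to P14 in controls and of Slc8a1 and Tbx20 from P1 to P14 in Casp2-depleted CMs were kept whichever library was left out. From P7 to P14 in controls, the adjusted p of Gata4 was 0.123 without P14 control replicate 4. That of Tbx20 was 0.393 without P7 control replicate 2, and 0.209 or 0.0612 when replicate 2 or 4 of P14 control was dropped. That of Atp1b1 was 0.0535 to 0.0775 without replicate 1 or 2 of P7 control or replicate 2 or 4 of P14 control. The call of Slc8a1 from P1 to P14 in controls ended without P1 control replicate 3 (0.398) or 4 (0.146) and without P14 control replicate 2 (0.166) or 4, and that of Gata4 in Casp2-depleted CMs ended in 5 of 21 such fits, with 0.257 without P1 Casp2-depleted replicate 4. Among 11 other analyses, the calls from P1 to P14 ended in 6 for Slc8a1 in controls and in 7 for Gata4 in Casp2-depleted CMs. From P7 to P14 in controls, the call of Tbx20 ended in 7 of 11, and those of Gata4, Slc8a1, Pkp2 and Atp1b1 in 3 each.

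In Casp2-depleted CMs, the channel partners Slmap, Dsg2, Camk2d and Ank2 fell from P7 to P14 by 2.42, 2.71, 1.97 and 1.99 (adjusted p = 0.0240, 9.87e-04, 0.0175 and 0.00130), and Ank2 fell by 1.48 from P1 to P14 (adjusted p = 0.0485). Ank2 encodes an ankyrin that places ion transporters and Camk2d a calcium-dependent kinase that phosphorylates the channel. Without P14 Casp2-depleted replicate 3, the adjusted p from P7 to P14 was 0.276 for Slmap, 0.148 for Dsg2, 0.297 for Camk2d and 0.13 for Ank2, and without replicate 4 it was 0.117 for Camk2d and 0.0634 for Ank2. The call of Camk2d also ended without P7 Casp2-depleted replicate 1 (0.392), without P1 Casp2-depleted replicate 1 (0.0624) and in 9 of 11 other analyses, among them DESeq2 (0.122), limma on log2 CPM (0.0689) and the fit with libraries blocked by replicate number (0.201). That of Slmap ended in 7 of 21 fits without 1 library and in 6 of 11 other analyses. That of Ank2 from P1 to P14 ended in 16 of 21, and in 10 of 11 other analyses, the replicate block (0.0556) among them.

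The calls moved with the analysis. Of the 17 calls of listed genes, 15 were kept with the replicate block, 12 by DESeq2, 13 by limma on log2 CPM, 4 with all 24 libraries and 2 by limma-voom. In limma-voom the weight of a library ran from 3.80 to 3649 for Fgf13 and from 6.22 to 228700 for Slc8a1, as its trend of spread on level fell below 0 at the highest levels, so its values for genes with many reads are not usable.

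Between the genotypes, 0 of 46 listed genes were called at P14 by edgeR, DESeq2 and limma-voom, where edgeR called 0.167% of all genes. In edgeR, 5 of the 46 and 12.8% of all genes had an unadjusted p below 0.05 at P14. No listed gene was called at P1 or P7, where 0% of all genes were called (edgeR). At an unadjusted p below 0.05 there were 4 listed genes at P1 and 1 at P7, and DESeq2 and limma-voom called 0 of them on either day. Over all genes, 1496 (7.34%) at P1 and 860 (4.22%) at P7 had an unadjusted p below 0.05 (edgeR), DESeq2 called 105 and 25, and limma-voom called 49 and 0. The study, with limma at the same thresholds, did report genes that differed between the genotypes at P7. Its methods do not name voom, and the reason for the difference was not tested. Averaged over the days, 0 listed genes were called by edgeR, DESeq2 and limma-voom, where edgeR called 0.0147% of all genes. In edgeR, 2 listed genes and 8.4% of all genes had an unadjusted p below 0.05. For genes with many reads the values of limma-voom are not usable, as stated above.

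From P1 to P7, edgeR, DESeq2 and limma-voom called 0 listed genes in controls and 0 in Casp2-depleted CMs, where edgeR called 0.00982% and 0.0196% of all genes. In edgeR, 12 and 2 of the 46 had an unadjusted p below 0.05, against 6.67% and 7.4% of all genes. The step from P1 to P7 differed between the genotypes for 0 listed genes and the step from P7 to P14 for 0 by the same tools. For these steps edgeR called 0% and 0.0245% of all genes. In edgeR, 0 and 2 listed genes (6.83% and 9.76% of all genes) had an unadjusted p below 0.05. The median log2 difference of the listed genes from P1 to P7 was 0.98 in controls and 0.07 in Casp2-depleted CMs, where that of all genes was 0.21 and 0.07.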

How the data were processed

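Reads per gene of 24 libraries of PCM1-sorted CM nuclei (QuantSeq 3′ ends, low-input protocol, 100-bp single-end reads) were analysed as deposited. Per the labels and the study's methods, the authors trimmed reads with cutadapt 4.0, aligned them with STAR 2.6.1e to GRCm39 and counted them with HTSeq 2.0.3 over full genes of Ensembl release 108. The deposited values are whole-number counts without normalization. Whether strand was used in counting and whether molecular identifiers were used is not given in the sources used here, so PCR copies are not separated from molecules. Counting over introns lets long genes collect nuclear reads. Names and coordinates came from GENCODE vM39 on GRCm39, which names 56236 of 56923 identifiers (99.5% of reads), and start windows came from RefSeq. Reads on no gene (34.3 to 76.1% of uniquely placed reads) stayed out of library sizes and tests.

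The members and the lists of other genes were chosen with earlier results of these data known, and some listed genes are not reported here. The robust quasi-likelihood fit took the 20368 genes that held 10 or more reads summed over the 21 libraries kept by the study and were read in 3 or more of them, and was made with edgeR 4.0.16 in R 4.3.3 on TMM-scaled counts, with 6 group means and 15 residual degrees of freedom. The fitted biological coefficient of variation was 1.5, and 19092 genes took their spread from the trend alone. SE is the log2 fold change over the root of the F statistic. The study's methods used limma on these counts and do not name voom. Limma enters here as limma-voom (limma 3.58.1), which may differ from the fit of the study. Other alternatives were DESeq2 1.42.0, its size factors in edgeR, filterByExpr, no filter, all 24 libraries, the 2 compared groups alone, the replicate block and leaving out each library. A fit with the percentage of reads outside genes, a fit without robust estimation and limma on log2 CPM with a trend (limma-trend) were added after seeing the data. The fit was tested on simulated data with large differences planted between the genotypes at P7 only. This does not show how well it finds smaller differences or differences between days. The 36 pairs of replicates differed by more than sampling noise (chi-square per gene of 19.2 to 180.2). Nothing says that pools were of separate litters, so p-values measure the spread between pools.

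The replicate number pairs the libraries in that the file labels name it a batch. Deviations from group means correlated by -0.124 to 0.372 over 4000 genes in the 9 same-numbered pairs, above 0.1 in 6 of them and in all 4 pairs of P7. Pairs of different numbers ran from -0.364 to 0.315, both at P7, so these correlations alone do not establish a pairing.

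Named are the 5 members, each listed gene that was called, the sodium channel and growth factor homologous genes with at least 10 reads, and the 3 genes of highest Pearson correlation to each member read in at least 14 libraries. Log2 CPM for likeness used a prior count of 2.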

Additional observations from a re-analysis of the deposited data

Results flagged for a closer look

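Of 13 groups of 4 libraries of the 5 genes, in which chance sets a library apart in about 1 of 20, 4 had a library far from the others by Dixon's criterion. These were Scn4a in P1 Casp2-depleted replicate 4 (5.98 CPM, the other 3 libraries at 0), Scn4a in P7 control replicate 2 (145.1 CPM, the others at 30.0 to 34.9), Scn4b in P7 Casp2-depleted replicate 3 (1.37 CPM, the others at 0) and Fgf12 in P7 control replicate 2 (361.9 CPM, the others at 198.8 to 214.2). In the groups of Scn4a at P1 and of Scn4b, where 3 of 4 libraries stood at 0, any read in the fourth meets the criterion, and the value of Scn4b is of 2 reads. The P7 control library named for Scn4a and Fgf12 also had the lowest TMM factor of the 21 libraries, 0.575.

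The 3 libraries that the study left out were compared with the kept controls of their day, without TMM scaling, in 15 comparisons, and 4 lay above all of those controls. Fgf13 stood at 2678 CPM in P1 control replicate 1 and at 3309 CPM in P14 control replicate 3, and Fgf12 at 289.1 CPM in P1 control replicate 1. Scn4a stood at 25.4 CPM in P14 control replicate 3. Another 4 of the 15 lay below all kept controls of their day. Scn10a had 0 reads in all 3 left-out libraries, where the kept controls held 17.7 to 47.9 CPM at P1 and 2.35 to 103.2 CPM at P14, and Fgf12 stood at 9.41 CPM in P14 control replicate 3, where they held 132.3 to 402.2 CPM.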

How the results depend on the processing

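Over the alternatives, 502 log2 differences of the members stayed within the spread between replicates and 13 moved, and without 1 library 991 stayed and 17 moved. Those that moved were of Scn4a and Fgf13. All 30 member levels without TMM factors stayed within the SD, though every TMM factor at P7 was below every one at P14. With Spearman's rho, 1 of the 3 genes most like Fgf13 and 1 of those most like Scn10a stayed among the 3 most like, and 2 each for Scn4a and Fgf12. Ryr2 and U2surp fell to ranks 22 and 32 for Fgf13, and ENSMUSG00000113017 and Thsd1 to 18 and 17 for Scn10a. Of 357 calls of listed genes refitted without 1 library, 310 were kept, and of 187 under the other alternatives 117.

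The number of listed genes called from P7 to P14 in controls was 5, and 0 with all 24 libraries, 0 with the percentage of reads outside genes, 8 with the replicate block and 3 with the compared groups alone. In Casp2-depleted CMs it was 7, and 2 with all 24 libraries and 2 with the percentage of reads outside genes. From P1 to P14 in controls it was 1, and 3 with DESeq2, 2 with limma-voom, 0 with filterByExpr, 3 with the replicate block, 2 with the percentage of reads outside genes, 3 without robust estimation and 0 with limma-trend. In Casp2-depleted CMs it was 4, and 8 with DESeq2, 2 with limma-voom, 2 with filterByExpr and 2 with the percentage of reads outside genes. From P1 to P7 it was 0, and 1 in controls without robust estimation and with the compared groups alone, and 1 in Casp2-depleted CMs with the replicate block and without robust estimation. The replicate block kept 15 of 17 calls. Without 1 library the counts ranged from 0 to 1 between the genotypes at P14 (0 with all libraries), 2 to 7 and 4 to 10 from P7 to P14 in controls and Casp2-depleted CMs, 0 to 3 and 2 to 7 from P1 to P14, and 0 to 1 from P1 to P7 in Casp2-depleted CMs. Camk2d from P7 to P14 in Casp2-depleted CMs changed direction with the percentage of reads outside genes (adjusted p = 1). The cause was not tested. Limma-voom gave libraries weights of 3.80 to 3649 for Fgf13, with SEs of 1.80 to 3.02, where limma-trend gave 0.60 to 0.65, and its values for genes with many reads are not usable. A level under 3 reads of a library (1.40 to 2.38 CPM) could not be told from 0, which limits Scn4a outside P7 and Scn4b.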
